A study of Mus musculus with 2 samples.

Results

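Extracellular nucleotides act on macrophages through P2X channels and P2Y receptors, and the adenosine made from them acts on adenosine receptors. The genes described here are 7 nucleotide receptors (P2rx4, P2rx7, P2ry2, P2ry6, P2ry12, P2ry13 and P2ry14), the adenosine receptor genes Adora2a and Adora2b, and Entpd1, which encodes the ectonucleotidase CD39. They were chosen by name, with earlier results of these data known. Every probe set that the annotation of the Mouse Genome 430 2.0 array assigned to exactly 1 gene, that gene being a member, was taken. This gave 15 probe sets for 8 of the 10 members, of 18193 genes with such a probe set in all. Adora2a and Adora2b were not analysed here. All 8 members reached the floor on at least 1 array, the floor being the array's own median signal over non-control probe sets, 26.7 on the LPS array and 35.1 on the control array. A gene that reached it on at least 1 array is called measured below.

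The samples were bone-marrow-derived macrophages of the strain labelled C57BL6, grown with the macrophage growth factor M-CSF. Cells were treated with lipopolysaccharide (LPS), a Gram-negative bacterial membrane component sensed by Toll-like receptor 4, or were left without it (control). Each condition is represented by 1 Affymetrix array of total RNA, and neither the dose nor the time of LPS is given in the labels. The design asks which transcripts differ between macrophages with and without LPS. With 1 array per condition there was no replicate check and no test, so every difference describes these arrays alone, and genes are counted by size, at least 2-fold.

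When cells are damaged or activated, ATP, UTP and UDP-sugars leave them and bind receptors on neighbouring cells. P2X receptors are cation channels opened by ATP, while P2Y and adenosine receptors signal through G proteins. CD39 cleaves ATP and ADP to AMP, and the ectoenzyme CD73 turns AMP into adenosine, which restrains macrophage activation through receptors that raise cAMP. In macrophages the P2X7 channel is known for letting potassium out of the cell, which triggers the NLRP3 inflammasome and the release of interleukin-1 beta.

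Upstream sequence is shown for the receptor genes that lie adjacent or close together on a chromosome. They are shown because the members within each of these clusters differed in their LPS to control ratio. The 250 bases before the first listed start were taken from RefSeq (build GRCm38.p6), whose promoter table was matched for 7 of the 8 members, with 13 starts, but not for P2ry6. The adjacent channel genes P2rx7 (chr5:122643677-122643926) and P2rx4 (chr5:122707294-122707543) lie on the plus strand. P2ry2 (chr7:101012054-101012303), the neighbour of P2ry6, lies on the minus strand. The Gi-coupled receptor genes P2ry12 (chr3:59262986-59263235), P2ry13 (chr3:59210883-59211132) and P2ry14 (chr3:59153493-59153742) lie on the minus strand. Each sequence runs 5′ to 3′ on its gene's strand, and capitals mark a match to a searched motif, AP-1 in P2rx7 and P2ry14 and the E-box in P2ry12.
P2rx7: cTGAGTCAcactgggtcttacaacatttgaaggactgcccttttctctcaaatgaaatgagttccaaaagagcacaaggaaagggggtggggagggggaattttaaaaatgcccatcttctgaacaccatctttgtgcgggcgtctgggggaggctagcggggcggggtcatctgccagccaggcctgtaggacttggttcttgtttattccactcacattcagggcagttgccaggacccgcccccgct
P2rx4: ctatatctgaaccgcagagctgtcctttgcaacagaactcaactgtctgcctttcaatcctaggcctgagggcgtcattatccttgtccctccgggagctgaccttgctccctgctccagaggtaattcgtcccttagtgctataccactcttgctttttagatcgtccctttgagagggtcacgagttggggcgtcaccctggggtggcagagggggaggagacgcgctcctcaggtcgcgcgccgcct
P2ry2: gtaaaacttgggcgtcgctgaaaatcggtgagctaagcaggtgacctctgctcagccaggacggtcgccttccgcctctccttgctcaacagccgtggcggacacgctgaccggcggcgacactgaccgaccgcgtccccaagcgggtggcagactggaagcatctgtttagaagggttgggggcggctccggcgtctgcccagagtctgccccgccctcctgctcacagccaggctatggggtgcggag
P2ry12: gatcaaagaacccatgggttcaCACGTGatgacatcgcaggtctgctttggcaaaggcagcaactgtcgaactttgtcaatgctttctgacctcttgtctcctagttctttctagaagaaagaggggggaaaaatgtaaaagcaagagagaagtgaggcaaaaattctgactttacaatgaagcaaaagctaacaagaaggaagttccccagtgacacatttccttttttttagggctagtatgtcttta
P2ry13: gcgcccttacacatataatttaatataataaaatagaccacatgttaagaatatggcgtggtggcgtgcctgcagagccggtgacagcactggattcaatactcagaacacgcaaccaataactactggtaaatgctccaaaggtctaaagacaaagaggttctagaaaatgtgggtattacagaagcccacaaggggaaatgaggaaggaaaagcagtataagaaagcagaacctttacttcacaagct
P2ry14: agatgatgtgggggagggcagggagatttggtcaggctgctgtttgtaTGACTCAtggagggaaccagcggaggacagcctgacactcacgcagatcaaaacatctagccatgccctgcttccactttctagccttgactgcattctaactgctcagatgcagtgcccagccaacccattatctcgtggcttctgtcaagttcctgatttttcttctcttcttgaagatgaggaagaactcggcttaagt

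Motifs were searched on both strands in these 250-base windows, and no matches overlapped each other. The AP-1 letters TGANTCA occurred in 3 of the 13 member windows, the first of P2rx7 and the first and second of P2ry14, against 6.75% of all 32851 windows. The E-box CACGTG occurred in the window of P2ry12 and in the second of P2ry2, against 6.02% of all windows. No member window held the NF-kB letters GGGNNTTTC (3.72% of all windows), the interferon response letters GAAANNGAA (7.13%), the cAMP response element TGACGTCA (1.55%) or the PU.1 letters GAGGAAGT (2.44%). These matches describe letters in short windows, not bound sites.

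The LPS array was lower than the control array for P2rx7, P2ry12, Entpd1 and P2ry6, higher by less than 2-fold for P2ry13 and P2ry14 and by at least 1.63-fold for P2ry2, and close to the array-wide shift for P2rx4. At 2-fold or more, 0 of the 8 genes were higher and 4 were lower. Over all 11722 measured genes 8.22% were that much higher and 26.2% that much lower. The members' median log2 ratio (LPS over control) was -0.82, and that of all measured genes was -0.42 (quartiles -1.05 and 0.10). This array-wide shift is of a size that matters for genes near the threshold. After the ratios were centred on their median, 3 members were higher by this size (P2ry13, P2ry2 and P2ry14) and 2 were lower (P2rx7 and P2ry12), where 13.1% of all measured genes were that much higher and 15.3% that much lower. Every member kept its direction under all the alternative settings in which it had a value, though some settings leave a value unchanged by construction. In these bulk samples a smaller number of cells of a type and less RNA per cell cannot be told apart.

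**Figure D1:**
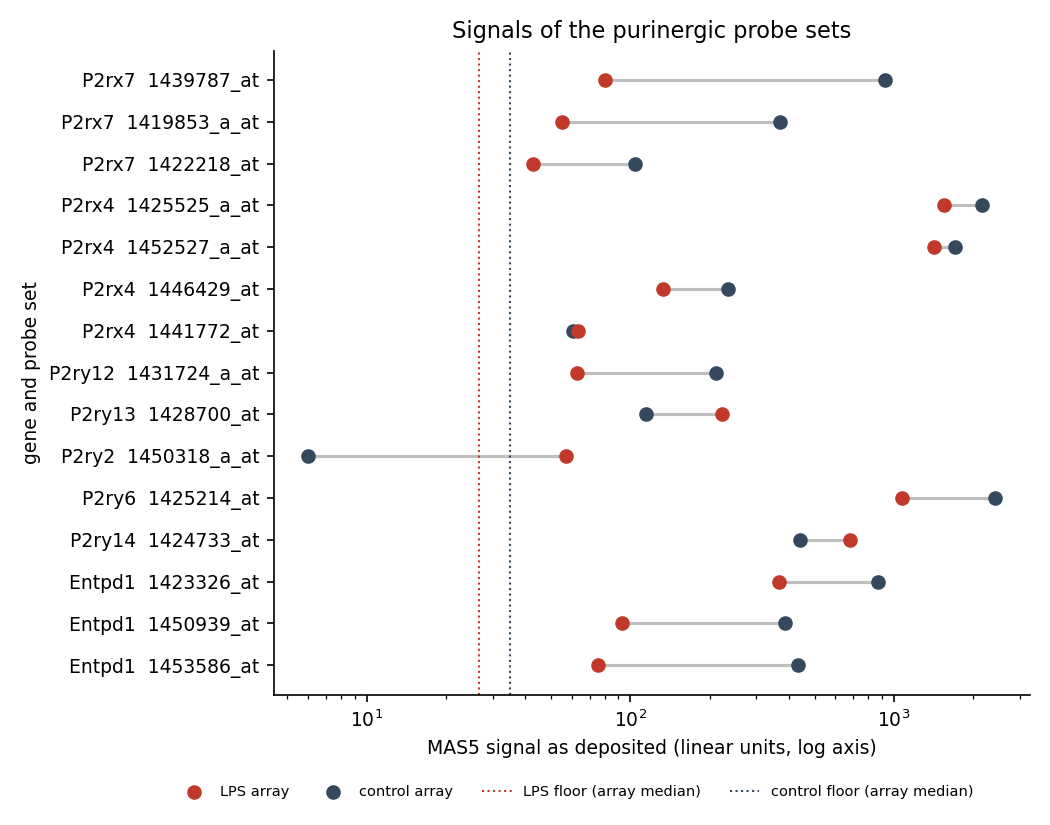
MAS5 signal on a log axis for each of the 15 probe sets, with the LPS array in red and the control array in dark blue, joined by a line, and each array's floor dotted in its colour. The LPS points lie left of the control points for 11 probe sets and right of them for 4, and the P2ry2 control point, at 6.0, lies under its floor.

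The ATP-gated channel gene P2rx7 showed the lowest ratio of the group. Its brightest probe set, 1439787_at, had a signal of 80.1 on the LPS array and 926 on the control array, 11.6-fold lower. Only 102 of the 11722 measured genes had a lower ratio. The other probe sets were lower as well. Probe set 1419853_a_at had 55.3 on the LPS array and 371 on the control array, 6.71-fold lower. Probe set 1422218_at had 42.7 on the LPS array and 104 on the control array, 2.45-fold lower. All 3 probe sets of P2rx7 therefore reached the floor on the LPS and the control array and pointed the same way, but they differed in size by 2.24 on the log2 scale. Among the 1114 genes with 3 probe sets over both floors the median range was 0.57, and 98.3% had a smaller range than P2rx7. The size of the P2rx7 difference thus depended on the probe set, with a log2 ratio of -2.75 for the median of the 3.

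P2rx4, the other ATP-gated channel gene of the group and the next protein-coding gene along the chromosome, was nearly level with the array as a whole as deposited. Probe set 1425525_a_at had 1551 on the LPS array and 2151 on the control array, a log2 ratio of -0.47. Probe set 1452527_a_at had 1420 on the LPS array and 1712 on the control array, a log2 ratio of -0.27. Both sets lay within 2-fold, close to the median of all genes. The dimmer 1446429_at was at -0.83, with 133 on the LPS array and 236 on the control array, and 1441772_at at 0.06, with 63.3 on the LPS array and 60.5 on the control array. After median centring the gene's log2 ratio was -0.05, but it was -0.37 with loess and -0.58 with quantile normalization, all within 2-fold. The 4 probe sets spanned 0.89 on the log2 scale, against a median range of 0.77 over 456 genes with as many.

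The 2 receptors for ADP differed in opposite directions. P2ry12 encodes a Gi-coupled ADP receptor known from platelets, where it is the target of clopidogrel, and from microglia. Its only probe set, 1431724_a_at, had 62.9 on the LPS array and 212 on the control array, 3.37-fold lower, and 9.91% of measured genes had a lower ratio. P2ry13, whose Gi-coupled product also binds ADP, had 222 on the LPS array and 114 on the control array by its only probe set, 1428700_at. That is 1.94-fold higher, just under the 2-fold threshold, and only 8.62% of measured genes had an equal or higher ratio. P2ry13 passed 2-fold under all 5 scalings of the arrays, by 2.60-fold after median centring, whereas P2ry12 was 2.52-fold lower after median centring and at -0.98 on the log2 scale with loess, just short of 2-fold.

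Because P2ry12 marks microglia and platelets, the marker lists of those cells are given beside it. Of 5 platelet and megakaryocyte markers with a probe set, 3 reached the floor on the LPS array and 3 on the control array. Their summed signal was 5717 on the LPS array and 6792 on the control array, nearly all from Pf4. Gp9 was under both floors, at 7.0 on the LPS array and 4.09 on the control array. On the log2 scale Pf4 was at -0.26 and Itga2b at -0.13, while Itgb3 was higher by at least 0.66 and Ppbp lower by at least 0.94. Of 5 microglia markers, 2 reached the floor on the LPS array and 3 on the control array, with a summed signal of 171 on the LPS array and 1436 on the control array, the larger sum being mostly Gpr34. The transcription factor gene Sall1, which defines microglia, was under both floors at 2.03 on the LPS array and 4.66 on the control array. The part of such cells in the P2ry12 difference was not tested. All 10 macrophage markers reached the floor on both arrays, with a summed signal of 63501 on the LPS array and 50478 on the control array. They lay on both sides, from -0.74 for Mertk to 2.01 for Fcgr1 on the log2 scale, with Adgre1, the F4/80 gene, at 0.07.

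The receptors for uridine nucleotides were divided too. P2ry6 encodes the Gq-coupled receptor for UDP. Its single probe set, 1425214_at, had 1075 on the LPS array and 2428 on the control array, 2.26-fold lower. After median centring it was 1.69-fold lower, within 2-fold, as it was with scaling to the poly-A controls, at -0.89 on the log2 scale. It stayed past 2-fold with quantile normalization (-1.25), loess (-1.06) and scaling to the hybridization controls (-1.13). P2ry14, the gene of the Gi-coupled receptor for UDP-glucose and related UDP-sugars, had 680 on the LPS array and 441 on the control array by its only probe set, 1424733_at. It was 1.54-fold higher as deposited and 2.07-fold higher after median centring, and 12.2% of measured genes had a higher or equal ratio. Its log2 ratio was 1.04 with loess. It was within 2-fold with quantile normalization (0.89) and scaling to the hybridization (0.67) or poly-A controls (0.91). P2ry2 encodes a Gq-coupled receptor for ATP and UTP. Its probe set, 1450318_a_at, had 57.1 on the LPS array, above the floor, and 6.0 on the control array, under the floor of 35.1, so the gene was at least 1.63-fold higher. That bound depends on the floor, since setting it at the 35th percentile of each array gave a log2 ratio of 1.77 in place of 0.70.

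**Figure D2:**
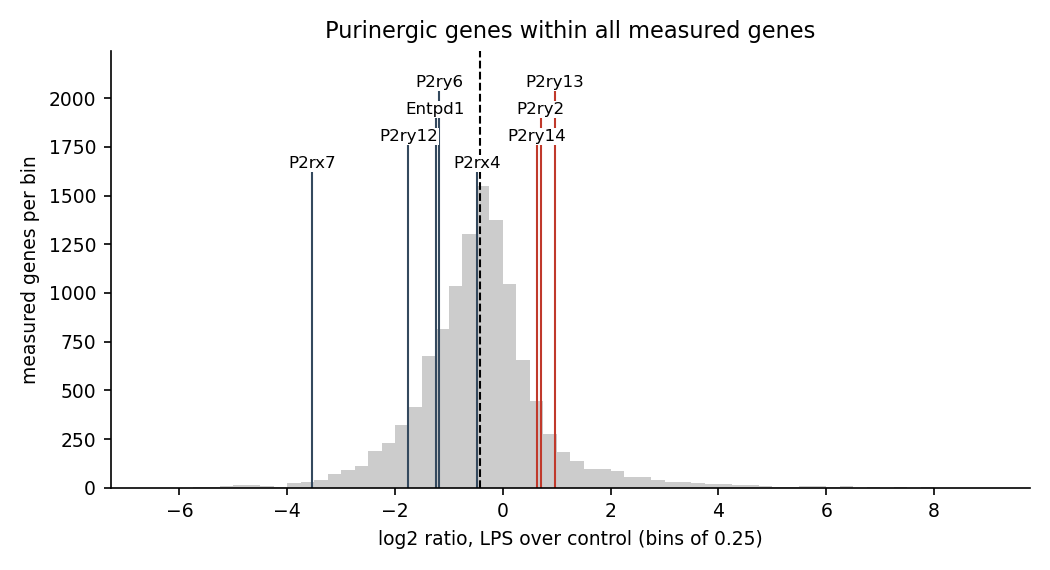
Histogram of the log2 ratio (LPS over control) of the 11722 measured genes in bins of 0.25, with each of the 8 genes drawn as a line (blue lower, red higher) and the median of all genes dashed at -0.42. P2rx7 lies in the lower tail at -3.53, P2rx4 at the centre and P2ry13 at 0.96. The P2ry2 line is a lower bound at 0.70.

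Entpd1, the gene of CD39, was lower by every probe set. The brightest, 1423326_at, had 365 on the LPS array and 867 on the control array, 2.38-fold lower. The 2 dimmer sets were lower by more, 1450939_at with 93.3 on the LPS array and 385 on the control array (4.13-fold) and 1453586_at with 75.3 on the LPS array and 433 on the control array (5.75-fold). Their log2 ratios spanned 1.28, a wider range than 86.1% of the 1114 genes with 3 probe sets. The brightest set alone was within 2-fold after median centring, 1.77-fold lower, while the other 2 remained at -1.62 and -2.10 on the log2 scale.

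**Figure D3:**
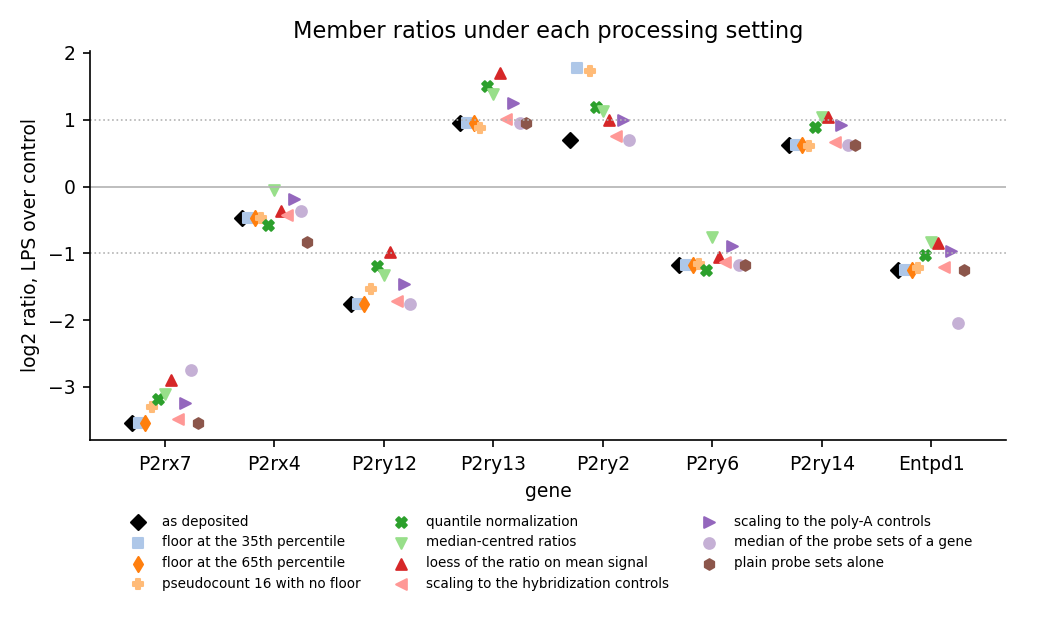
Log2 ratio (LPS over control) of the 8 genes as deposited (black diamonds) and under 10 other settings, with dotted lines at 2-fold. P2rx7 stays between -3.53 and -2.75, P2ry13 between 0.87 and 1.71, and no gene crosses 0. P2ry2 has no point with plain probe sets alone or under the floor set at percentile 65, and P2ry12 none with plain probe sets alone.

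Some members that lie next to each other differed in ratio, while some neighbours stood on the same side. P2rx7 and P2rx4 are adjacent, with log2 ratios of -3.53 and -0.47. The outer neighbours of this pair were the kinase gene Camkk2 at 0.76, the anaphase-promoting complex gene Anapc5 at -0.52, the calcium pump gene Atp2a2 at 0.39 and the ciliary transport gene Ift81, at least 2.09-fold lower beside P2rx7. P2ry6 and P2ry2 are adjacent as well, the first 2.26-fold lower and the second at least 1.63-fold higher. Around them Fchsd2 was 2.35-fold higher, the autophagy-related gene Atg16l2 3.29-fold lower, Relt at least 3.35-fold lower and Arhgef17 at -0.03 on the log2 scale, or 0.39 after median centring.

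P2ry14, P2ry13 and P2ry12 lie close together on the chromosome, and all 3 lie inside the span of the Mediator gene Med12l. By order of start, a protein-coding gene that was not analysed here lies between P2ry14 and P2ry13. Med12l had 54.6 on the LPS array and 66.7 on the control array, a log2 ratio of -0.29 that turns to 0.13 after median centring. Gpr171, a receptor gene in the same stretch, was at -0.22, or 0.20 after median centring. The 2 members at 0.63 and 0.96 thus stood beside a member at -1.75 and dim neighbours within 2-fold. Igsf10 was under both floors. Next to Entpd1, the ciliary gene Tctn3 was 5.20-fold lower, as Entpd1 was lower, the cyclin gene Ccnj 7.0-fold higher, and Aldh18a1, a proline synthesis gene, at -0.70 on the log2 scale. Cc2d2b was under both floors.

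**Figure D4:**
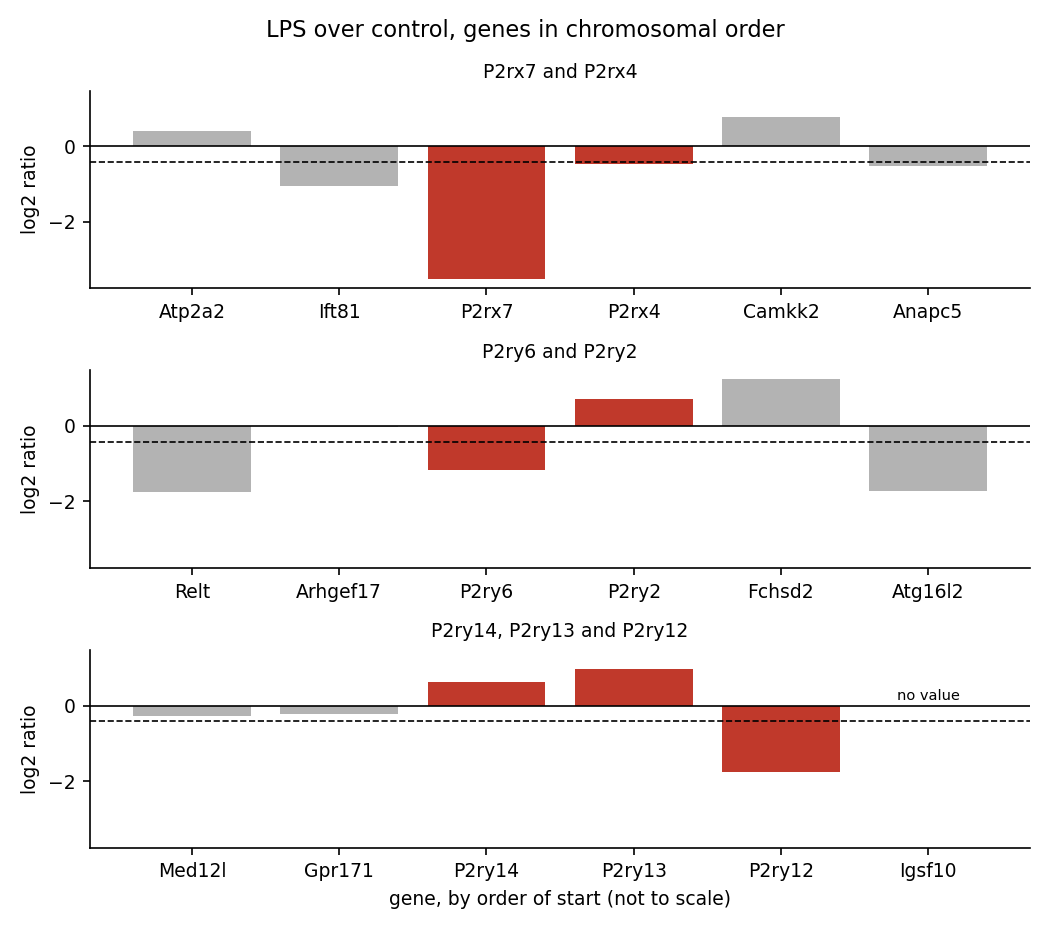
Log2 ratio (LPS over control) of the genes around the 3 receptor clusters, in order of their starts, not to scale and only where analysed here, with members in red, other genes in grey and the median of all genes dashed at -0.42. Within each cluster the members differ, from -3.53 to -0.47, from -1.18 to 0.70 and from -1.75 to 0.96. The P2ry2, Ift81 and Relt bars are bounds set by the floor.

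Other genes of nucleotide signalling were taken from 8 lists ordered by role, holding 90 genes, of which 64 were measured. The lists were chosen with earlier results of these data known, so their shares describe the chosen genes alone. By at least 2-fold, 13 of these (20.3%) were higher and 17 (26.6%) lower. Their median log2 ratio was -0.37. These values stand against 8.22% and 26.2% and a median of -0.42 over all measured genes. The receptors outside the members were mostly dim. Of 10 further genes listed as nucleotide receptors, some by name alone, 6 were under both floors and 4 were measured. The brightest of the list was P2ry10b, with 191 on the LPS array and 266 on the control array. P2ry1, a Gq-coupled ADP receptor gene, was at least 3.37-fold lower, with 2.87 on the LPS array, under the floor, and 89.9 on the control array. P2rx1 was near the floor, with 35.4 on the LPS array and 32.8 on the control array. The adenosine receptor gene Adora3 was under both floors, and Adora1 was not analysed here.

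Among the ectoenzymes, 7 of 12 with a probe set were measured. Of these 2 were higher and 1 was lower, or 2 and 0 after median centring, where all measured genes had 8.22% and 26.2%, or 13.1% and 15.3% centred. Enpp4, whose product cleaves dinucleotides, was at least 21.7-fold higher, with 760 on the LPS array and 32.0 on the control array, under the floor. Bst1, a cyclic ADP-ribose enzyme gene related to CD38, was 4.55-fold higher. Entpd7, an intracellular relative of Entpd1, had a brightest probe set 2.15-fold lower (1.61-fold after median centring), and the log2 ratios of its 3 measured sets lay between -1.94 and -0.23. Nt5e, the CD73 gene, was under both floors, with 6.46 on the LPS array and 21.0 on the control array. Of 6 measured genes of adenosine removal, Pnp, the purine nucleoside phosphorylase gene, was 2.75-fold higher and Slc29a3, a lysosomal nucleoside transporter gene, 2.73-fold lower, and 4 were within 2-fold. That is 1 gene past 2-fold in each direction, as deposited and after median centring, beside the same shares of all measured genes.

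The nucleotide release list had a median log2 ratio of -1.23, with 2 of 9 measured genes higher and 5 lower, against 8.22% and 26.2% of all measured genes. After median centring 2 were higher and 3 lower, against 13.1% and 15.3%. Panx1, whose channel releases ATP from apoptotic cells, was 2.99-fold lower, Calhm2 7.0-fold, the ATP and pyrophosphate exporter gene Ank 4.84-fold and the volume-regulated channel gene Lrrc8d 2.51-fold. Calhm2 and Ank stayed past 2-fold under all 5 scalings. After median centring Panx1 was 2.23-fold lower and Lrrc8d 1.87-fold lower, within 2-fold. With loess both were within 2-fold, at -0.81 and -0.60 on the log2 scale, as with quantile normalization, at -0.997 and -0.78. The connexin gene Gja1 was 10.97-fold higher, with 863 on the LPS array and 78.6 on the control array by its brightest probe set. Its 6 probe sets had log2 ratios between 1.49, a bound set by the floor, and 3.49. Xkr8, counted in this list though it encodes a phospholipid scramblase, was 14.2-fold higher. In the UDP-glucose and uridine nucleotide list 1 of 8 measured genes was higher and 0 were lower, as deposited and after median centring, beside the same shares of all measured genes. The higher gene was the mitochondrial UMP-CMP kinase gene Cmpk2, also an interferon-stimulated gene, which was 25.5-fold higher.

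**Figure D5:**
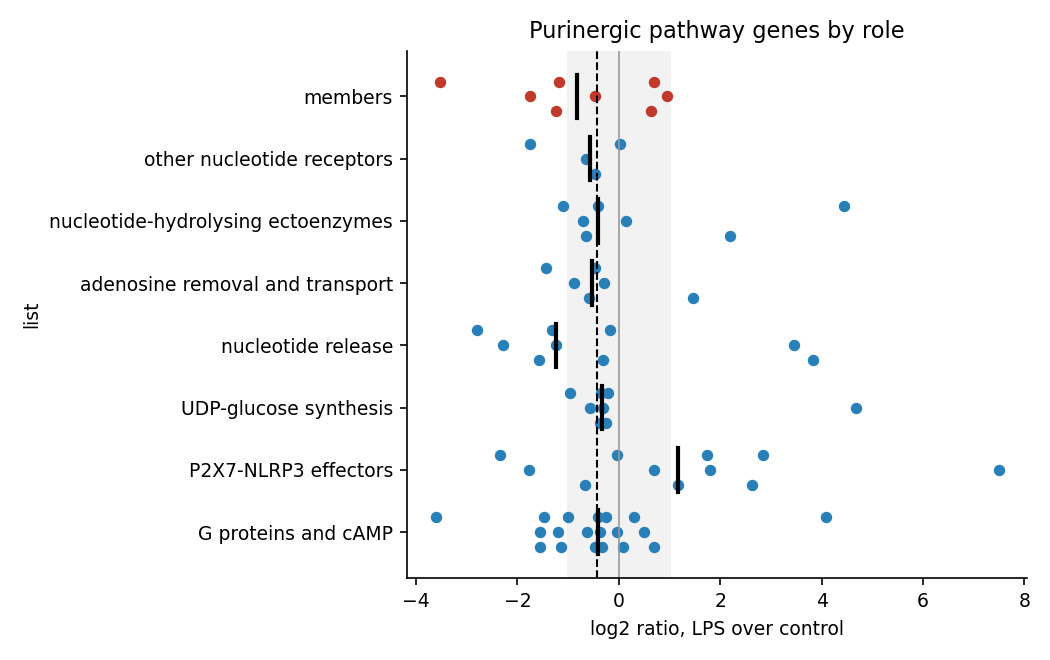
Log2 ratio (LPS over control) of the 8 members in red and of measured genes of 7 lists in blue, with a black bar at each list's median, the span within 2-fold shaded and the median of all genes dashed at -0.42. The P2X7-NLRP3 list has its median at 1.17 and the nucleotide release list at -1.23, while the members have theirs at -0.82.

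In the P2X7-NLRP3 list of interleukin-1 release genes, 6 of 11 measured genes passed 2-fold on the higher side and 2 on the lower side, against 8.22% and 26.2% of all measured genes. After median centring these numbers were 7 and 2, against 13.1% and 15.3%. The median log2 ratio of the list was 1.17. The sensor gene Nlrp3 was 3.46-fold higher, with 1178 on the LPS array and 341 on the control array, the cytokine gene Il18 7.22-fold, Mefv, the gene of the inflammasome sensor pyrin, 6.16-fold and Il1b 180-fold. The 2 lower genes of the list were Kcnk6 and Txnip. Kcnk6, whose potassium channel TWIK2 works together with P2X7 in mouse macrophages, had 377 on the LPS array and 1288 on the control array, 3.41-fold lower, and Txnip, a thioredoxin inhibitor gene, was 5.06-fold lower.

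Of 19 measured genes of G protein and cAMP signalling, 1 was higher and 7 were lower, against 8.22% and 26.2% of all measured genes. Once the ratios were median-centred the split was 2 against 4, where all measured genes had 13.1% and 15.3%. The list's median log2 ratio was -0.42, beside -0.42 over all measured genes. The adenylyl cyclase genes Adcy9 and Adcy7, which make cAMP downstream of Gs-coupled receptors, were 12.2-fold and 2.92-fold lower. The brightest Adcy9 probe set had 49.5 on the LPS array and 606 on the control array, and its 4 sets lay between -4.08, a bound set by the floor, and -1.50 on the log2 scale. Plcb2, a phospholipase downstream of Gq-coupled receptors, was 2.93-fold lower. It had 28.3 on the LPS array, near the floor of 26.7, and 83.1 on the control array. Plcb3, of the same family, went the other way, at 0.69 on the log2 scale and 2.16-fold higher after median centring. Prkar2b, a regulatory subunit of protein kinase A, was 2.77-fold lower. With loess Plcb2 and Prkar2b were within 2-fold, at -0.998 and -0.70 on the log2 scale. Prkar2b was also within 2-fold with quantile normalization, at -0.89. The phosphodiesterase gene Pde4b, which degrades cAMP, was 17.0-fold higher, with 1626 on the LPS array and 95.5 on the control array. Apart from Plcb3, which was not among the genes checked, the directions given for named pathway genes were the same as deposited and under the 5 scalings.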

How the data were processed

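The authors deposited linear intensity values that, per the submitters' processing notes, MAS5 produced, 1 signal per probe set for the LPS array and the control array. The MAS5 version is not given in the sources used here, nor is any scaling target, and no detection calls were used. Of 45037 non-control probe sets, 34945 had exactly 1 gene in the platform annotation. Gene identifiers of the 8 members matched the RefSeq table of GRCm38.p6. Signals below the floor were raised to it before log2 LPS minus log2 control was taken, and such folds are written "at least". A gene was read by the probe set whose log2 signals had the highest mean. The number of arrays limits precision, and no p-value was computed. Named list genes are up to 4 past 2-fold in each direction and the largest against the list median, with Plcb3 given beside Plcb2. Alternatives were floors at percentiles 35 and 65, 16 added as pseudocount, quantile normalization, median centring, loess (span 0.4), scaling to 18 hybridization or 24 poly-A controls, other probe set rules, genes at or above both floors, and 3-fold and 1.5-fold thresholds. Steps ran in Python 3.11.15 with statsmodels 0.14.6 and were tested on simulated data. Members and lists were chosen with earlier results of these data known.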

Additional observations from a re-analysis of the deposited data

How the results depend on the processing

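The 8 genes gave 84 values under the 11 alternatives that kept the 2-fold threshold. No value changed direction, 67 stayed on the same side of 2-fold, 6 fell inside it and 11 passed it. Some of these values repeat the value as deposited by construction, so their agreement is no check. For the 7 genes over both floors, the other 2 floors and the filter on both floors changed nothing. Nor did the probe set median for genes with 1 probe set, or plain sets alone where the brightest was plain. The number of members at least 2-fold higher, 0 as deposited, came to 1 under the floor set at percentile 35, the pseudocount of 16, and scaling to the hybridization or poly-A controls, 2 with quantile normalization and loess, and 3 with median centring and the 1.5-fold threshold. The number lower, 4 as deposited, was 2 with median centring, loess, scaling to the poly-A controls and the 3-fold threshold. Of the other pathway genes, 17 were lower as deposited, but 9 with quantile normalization, 11 with median centring, 8 with loess and 6 at 3-fold. Over all measured genes, 964 were higher and 3076 lower as deposited, with 1537 and 1790 after median centring, 1613 and 1500 with loess, and 1828 lower with quantile normalization. P2ry2 was not measured under the floor set at percentile 65, and it and P2ry12 have no plain probe set. The cause of these moves beyond the array-wide shift was not tested, and with 1 array per condition no replicate could be left out. Signals near the floor on the LPS array limit the values of P2ry2, P2ry12, P2rx7 and the dimmer Entpd1 probe sets. The P2ry2 value is limited foremost by its control signal, which was under the floor.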
